A study of Mus musculus with 36 samples.

Results

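Cholinergic transmission is described here through 4 genes: Chat, Slc18a3, Slc5a7 and Ache. Chat encodes choline acetyltransferase, which makes acetylcholine, and Slc18a3 encodes the vesicular transporter that loads it into synaptic vesicles. Slc5a7 encodes the high-affinity transporter that takes choline back into the nerve terminal, and Ache encodes acetylcholinesterase, which breaks acetylcholine down. The genes were found by their symbols, as 4 of the 21761 genes in the deposited counts. All 4 were among the 15207 genes that passed the filter on low counts. They had reads in all 36 libraries, and the lowest count of any of them in a library was 245 reads (Ache).

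RNA was sequenced from motor neurons differentiated from mouse ES cells of the Hlxb9-GFP1Tmj strain. After sorting, the cells were kept for 3 days or 1 day in medium conditioned by astrocytes overexpressing G93A mutant SOD1 (mSOD1), by astrocytes overexpressing wild-type SOD1 (wtSOD1) or by non-transgenic astrocytes (NTg). Each of the 6 groups had 6 libraries, which the labels number as experiments 1 to 6. Nothing in the labels says that the libraries of a group came from separate cultures beyond that number, so p-values measure the spread between these libraries. All groups shared a reporter driven by the promoter of HB9 (Mnx1), which was eGFP alone or eGFP with CD2, a magnetic sort by CD2 antibody, and a medium with added D-glucose, penicillin/streptomycin, GDNF, BDNF and CNTF. The SOD1 transgenes were in the astrocytes, not in the neurons that were sequenced. The astrocytes were taken from newborn pups, from spinal cords in some cultures and cortices in others, and the tissue behind each library's medium is not stated in the labels. A time zero control was not analysed here.

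In a motor neuron terminal, Chat joins choline to an acetyl group from acetyl-CoA, and the product is packed into vesicles in exchange for protons. After release, acetylcholinesterase in the synaptic cleft splits acetylcholine, and the choline is carried back into the terminal for reuse. The Slc18a3 gene lies within the Chat gene on the same strand, an arrangement called the cholinergic gene locus, and both are known targets of the Isl1 and Lhx3 transcription factors in motor neurons.

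The promoters of the 4 genes are shown because 2 of them stand next to each other in the cholinergic locus and the genes divided into pairs by the size of their change. Each window runs from 250 bases before to 50 bases after the RefSeq start, 5′ to 3′ on the gene's strand, in build GRCm38.p6. Capitals mark matches to 5 motifs on either strand, so that a motif can appear as its reverse complement. The motif searched as the GC box was GGGCGG. The CCAAT box was searched by those letters. The core of the CRE element was searched as TGACG. The core of homeodomain sites was searched as TAAT, and the TATA box as TATAAA.
Chat, chr14:32465860-32466159, minus strand: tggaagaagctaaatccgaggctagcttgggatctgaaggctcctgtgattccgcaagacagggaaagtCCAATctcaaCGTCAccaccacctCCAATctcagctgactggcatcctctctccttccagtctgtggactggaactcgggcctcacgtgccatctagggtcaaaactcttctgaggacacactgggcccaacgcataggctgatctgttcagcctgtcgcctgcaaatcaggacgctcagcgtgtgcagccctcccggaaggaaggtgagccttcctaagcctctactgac
Slc18a3, chr14:32464801-32465100, minus strand: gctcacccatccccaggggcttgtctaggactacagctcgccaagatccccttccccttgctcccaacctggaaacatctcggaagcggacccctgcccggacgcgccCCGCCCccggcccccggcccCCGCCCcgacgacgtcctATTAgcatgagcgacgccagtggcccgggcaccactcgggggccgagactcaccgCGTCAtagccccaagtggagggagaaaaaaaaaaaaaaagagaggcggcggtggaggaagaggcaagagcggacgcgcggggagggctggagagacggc
Slc5a7, chr17:54298985-54299284, minus strand: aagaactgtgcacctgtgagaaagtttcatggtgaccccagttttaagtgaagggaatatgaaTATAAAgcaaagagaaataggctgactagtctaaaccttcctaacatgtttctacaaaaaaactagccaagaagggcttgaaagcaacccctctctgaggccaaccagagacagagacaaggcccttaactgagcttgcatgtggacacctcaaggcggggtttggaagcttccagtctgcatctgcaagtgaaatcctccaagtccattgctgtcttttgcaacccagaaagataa
Ache, chr5:137288004-137288303, plus strand: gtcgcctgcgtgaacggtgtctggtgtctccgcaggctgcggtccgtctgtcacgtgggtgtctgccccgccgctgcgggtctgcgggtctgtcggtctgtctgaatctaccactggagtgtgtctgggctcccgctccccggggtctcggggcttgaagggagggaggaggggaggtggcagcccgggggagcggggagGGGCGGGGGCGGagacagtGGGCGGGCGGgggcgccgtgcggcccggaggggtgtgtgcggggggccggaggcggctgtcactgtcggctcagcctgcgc

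Positions are counted from the start, with negative values before it. The Chat window held CCAAT at -181 and -157, with TGACG between them at -171. The Slc18a3 window held GGGCGG at -142 and -122, TAAT at -104 and TGACG at -49. The Ache window held GGGCGG 4 times, at -50, -44, -31 and -27, and the last pair share bases. The Slc5a7 window held TATAAA at -187 and none of the other capitalised motifs. TGACG was thus in the windows of both genes of the cholinergic locus and in neither of the others, while GGGCGG was in those of Slc18a3 and Ache. CCAAT was in the window of Chat alone, TAAT in that of Slc18a3 alone and TATAAA in that of Slc5a7 alone. Among 32544 RefSeq promoter windows of the same length, GGGCGG was in 35.9%, CCAAT in 37.4%, TGACG in 20.9%, TAAT in 57.9% and TATAAA in 13.6%. CANNTG (E-box), not capitalised, was in all 4 windows and in 72.3% of promoters. TTCAGCA and GGACAG, core letters of the RE1 element, were in none of the 4 windows and in 4.67% and 22.3% of promoters. The G and C content was 55.7% for Chat, 67% for Slc18a3, 44.7% for Slc5a7 and 74% for Ache, against a median of 53% over all promoters. These matches describe letters in short windows.

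Libraries held 4.39 to 88.9 M reads counted on genes (1 M is 1e+06 reads), with both extremes on day 1. The smallest, NTg day 1 replicate 6, also stood apart from the other libraries on principal component 2. The largest, wtSOD1 day 1 replicate 4, stood apart on principal component 3. The calls that move without these libraries are named below. Levels are given as CPM, the reads of a gene per 1e+06 reads of its library, with library totals scaled by TMM factors. Motor neuron identity was checked with Mnx1 and Isl1. Mnx1 averaged 36.7, 32.5 and 34.6 CPM on day 3 in mSOD1, wtSOD1 and NTg medium, and 107, 107 and 112 CPM on day 1 in the same order of media. Isl1 averaged 57.9, 55.2 and 57.0 CPM on day 3 and 152, 153 and 160.0 CPM on day 1, again in that order. Markers of other cell types were present as well, and most are given with the change between the days. On day 1 in NTg medium, summed oligodendrocyte lineage markers ranged from 81.6 to 240 CPM (median 83.2). Summed microglia markers ranged from 12.6 to 44.8 CPM there (median 13.9). In mSOD1 and wtSOD1 medium on day 1 the highest values were 92.2 and 85.7 CPM, and 16.4 and 20.9 CPM. Summed pluripotent cell markers reached 24.1 CPM on day 1 in mSOD1 medium (median 1.28). Sod1 averaged 38.9 to 45.1 CPM in the 6 groups and was called in none of the 12 comparisons in the fits without a block and with a block across days.

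Per kilobase of exon, the level fell in the order Chat, Slc18a3, Slc5a7, Ache on day 1. GENCODE M21 exon lengths of 2.86, 2.41, 5.18 and 2.19 kb were used, which need not be those of the authors' annotation. In NTg medium on day 1 the means were 78.1 ± 8.32 CPM per kb for Chat, 65.5 ± 7.96 for Slc18a3, 42.0 ± 5.60 for Slc5a7 and 26.8 ± 3.95 for Ache (SD, n = 6). The range of Chat, 63.9 to 86.5 CPM per kb, overlapped that of Slc18a3, 52.4 to 74.5. The Slc18a3 range lay above that of Slc5a7, 36.1 to 50.4 CPM per kb, which lay above that of Ache, 21.8 to 33.6. On day 3 the means were closer together, and the order of day 1 held in mSOD1 medium alone. The mean of Slc5a7 was above that of Slc18a3 in wtSOD1 medium and, by little, in NTg medium. The means for Chat, Slc18a3, Slc5a7 and Ache were 34.7, 29.6, 28.3 and 20.6 CPM per kb in mSOD1 medium, 27.3, 22.6, 24.4 and 19.2 in wtSOD1 medium, and 28.6, 24.0, 24.3 and 17.3 in NTg medium, and neighbours overlapped in every medium.

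All 4 genes fell between day 1 and day 3 in all 3 media, the synthesis and loading genes by the larger amount. Chat and Slc18a3 on day 3 were at 33.1% to 45.6% of their day 1 levels, and Slc5a7 and Ache at 56.8% to 75.8%. Each gene was lower on day 3 in 6 of 6 experiments in each medium, with libraries of the days matched by experiment number. Deviations from the group means were hardly more alike across days for libraries sharing a number (mean r 0.0373) than for others (-0.00753). Counts of experiments across days therefore rest on a loose match. All 12 falls passed edgeR's quasi-likelihood test with Benjamini-Hochberg adjustment over the 15207 genes, at a threshold of 0.05. Change between the days was common: 56.5% of all genes tested were called in mSOD1 medium, 61.8% in wtSOD1 medium and 61.6% in NTg medium. Those called lower on day 3 were 28%, 30.7% and 30.8% of genes in the same order of media, and those lower in every experiment were 23.3%, 25.9% and 26.1%. The shared direction of the 4 genes is read against that background.

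**Figure D1:**
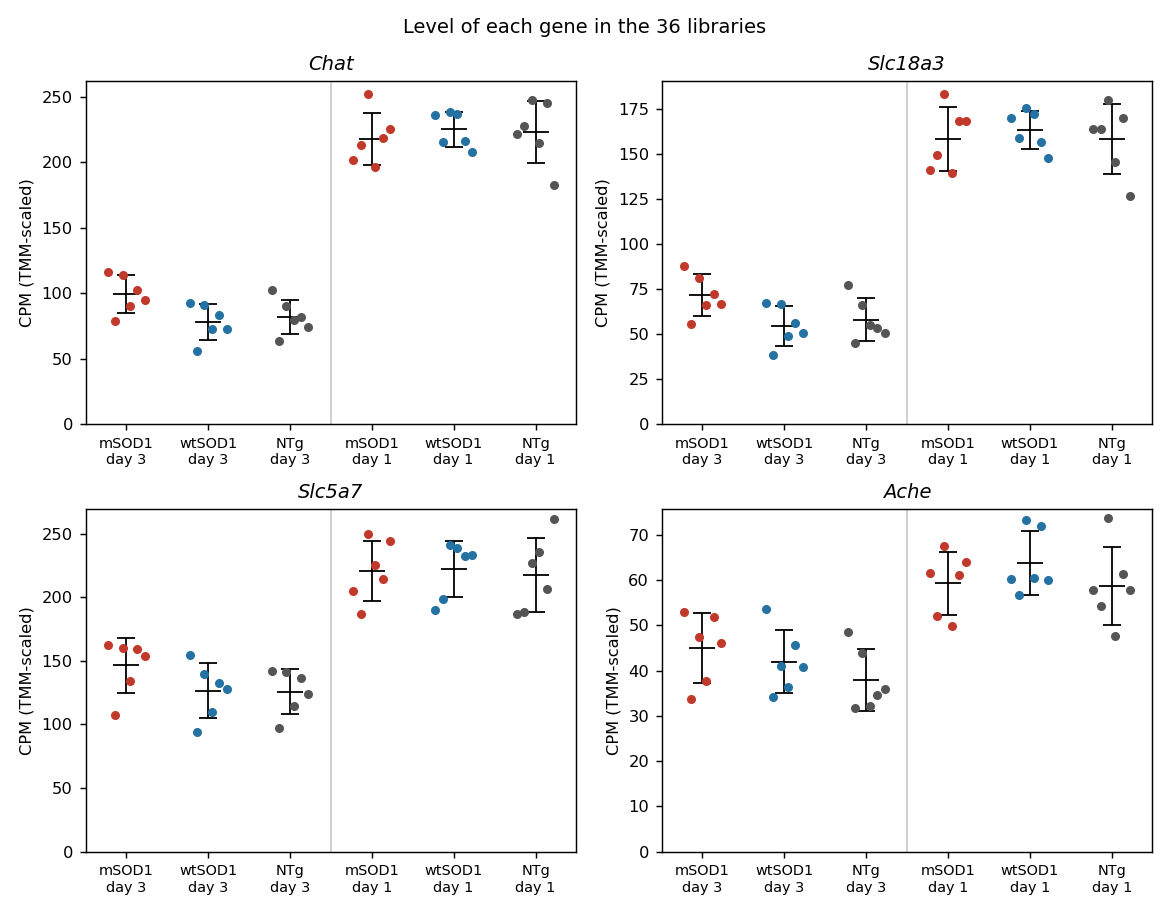
Level of each gene in TMM-scaled CPM (vertical axis) in each of the 36 libraries, by medium and day; points are libraries, and black lines are the mean ± SD of 6 libraries. Day 3 libraries lie below day 1 libraries for Chat, Slc18a3 and Slc5a7, while the Ache days overlap in mSOD1 and NTg medium.

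Chat, the enzyme of acetylcholine synthesis, ranged from 78.8 to 116 CPM on day 3 in mSOD1 medium (median 98.5), against 196 to 252 CPM on day 1 (median 216). In wtSOD1 medium it ranged from 56.0 to 92.2 CPM on day 3 (median 77.8), against 208 to 238 CPM on day 1 (median 226). In NTg medium it ranged from 63.4 to 102 CPM on day 3 (median 80.6), against 182 to 247 CPM on day 1 (median 225). Every day 3 library was below every day 1 library of its medium. The log2 difference, day 3 over day 1, was -1.13 ± 0.10 in mSOD1 medium (SE, adjusted p = 2.12e-11), -1.54 ± 0.10 in wtSOD1 medium (adjusted p = 8.22e-15) and -1.45 ± 0.10 in NTg medium (adjusted p = 3.75e-14).

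Slc18a3, the vesicular transporter, followed Chat. It ranged from 55.5 to 87.6 CPM on day 3 in mSOD1 medium (median 69.4), against 139 to 183 CPM on day 1 (median 159). In wtSOD1 medium it ranged from 38.0 to 67.0 CPM on day 3 (median 53.3), against 148 to 175 CPM on day 1 (median 164). In NTg medium it ranged from 45.0 to 77.4 CPM on day 3 (median 54.2), against 126 to 180 CPM on day 1 (median 164). The days did not overlap in any medium. The log2 differences were -1.14 ± 0.12 in mSOD1 medium (adjusted p = 6.9e-10), -1.59 ± 0.12 in wtSOD1 medium (adjusted p = 2.15e-13) and -1.45 ± 0.12 in NTg medium (adjusted p = 2.18e-12).

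Slc5a7, the choline reuptake transporter, ranged from 107 to 163 CPM on day 3 in mSOD1 medium (median 157), against 187 to 249.6 CPM on day 1 (median 219.97). In wtSOD1 medium it ranged from 93.9 to 154 CPM on day 3 (median 130.2), against 190.2 to 241 CPM on day 1 (median 233). In NTg medium it ranged from 97.0 to 142 CPM on day 3 (median 130.4), against 187 to 261 CPM on day 1 (median 217). The days did not overlap here either, but the gap was narrower than for Chat. The log2 differences were -0.59 ± 0.11 in mSOD1 medium (adjusted p = 2.43e-05), -0.82 ± 0.11 in wtSOD1 medium (adjusted p = 7.41e-08) and -0.78 ± 0.11 in NTg medium (adjusted p = 2e-07).

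Ache, the enzyme that ends the signal, had the least negative fold of the 4 genes in each medium. It ranged from 33.8 to 53.0 CPM on day 3 in mSOD1 medium (median 46.8), against 49.8 to 67.4 CPM on day 1 (median 61.2). In wtSOD1 medium it ranged from 34.2 to 53.6 CPM on day 3 (median 40.9), against 56.7 to 73.3 CPM on day 1 (median 60.4). In NTg medium it ranged from 31.7 to 48.5 CPM on day 3 (median 35.3), against 47.7 to 73.6 CPM on day 1 (median 57.8). The days overlapped in mSOD1 and NTg medium and were apart in wtSOD1 medium. The log2 differences were -0.40 ± 0.12 in mSOD1 medium (adjusted p = 0.00443), -0.60 ± 0.12 in wtSOD1 medium (adjusted p = 3.12e-05) and -0.62 ± 0.12 in NTg medium (adjusted p = 2.42e-05). Groups apart in the lower direction were found for 14.6% of all genes in mSOD1 medium, 18.4% in wtSOD1 medium and 18.6% in NTg medium, against 3, 4 and 3 of the 4 genes in the same order.

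**Figure D2:**
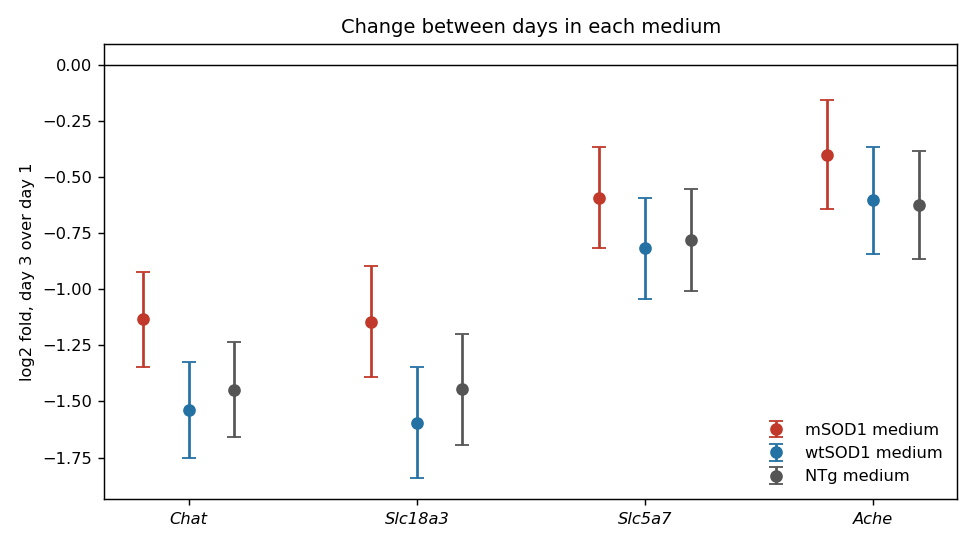
Log2 fold of each gene, day 3 over day 1 (vertical axis), in mSOD1, wtSOD1 and NTg medium; points are edgeR estimates, and bars are 95% confidence intervals. All 12 intervals lie below 0, with the points for Chat and Slc18a3 between -1.59 and -1.13 and those for Slc5a7 and Ache between -0.82 and -0.40.

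In bulk RNA, fewer cells of a type and less RNA per cell cannot be told apart. The markers of motor neurons and neurons fell over the same days. Depending on the medium, 28% to 30.8% of all genes were called lower on day 3 and 28.4% to 31.1% higher. Summed motor neuron markers (7 genes) ranged from 779 to 909 CPM on day 3 in mSOD1 medium, 629 to 823 in wtSOD1 medium and 694 to 934 in NTg medium, against 1174 to 1456, 1148 to 1363 and 1230.3 to 1467 CPM on day 1 in the same order of media. Of the 7, 6 fell in mSOD1 medium, 6 in wtSOD1 medium and 7 in NTg medium, and 8 of 8 pan-neuronal markers fell in each medium. Summed markers of dividing cells (7 genes) ranged from 744 to 1097 CPM on day 3 in mSOD1 medium, 889 to 1359 in wtSOD1 medium and 904 to 1301 in NTg medium, against 439 to 635, 506 to 625 and 505 to 642 CPM on day 1. Of these 7, 6 rose in mSOD1 medium, 7 in wtSOD1 medium and 7 in NTg medium.

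Astrocyte markers also rose. Summed over 8 genes, they ranged from 444 to 583 CPM on day 3 in mSOD1 medium, 468 to 611 in wtSOD1 medium and 479 to 653 in NTg medium, against 162 to 211, 172 to 217 and 158 to 235 CPM on day 1. In each medium 6 of the 8 rose and Slc1a2, a glutamate transporter, fell. Aldh1l1, a folate enzyme of astrocytes, averaged 133 CPM on day 3 in NTg medium, against 14.1 CPM on day 1, while Gfap, the astrocyte filament protein, averaged 1.02 and 0.212 CPM on the same days. Summed mesenchyme markers (5 of 5 tested rose in each medium) averaged 174, 197 and 232 CPM on day 3 in mSOD1, wtSOD1 and NTg medium, against 77.9, 83.8 and 81.4 CPM on day 1. Summed neural progenitor markers averaged 1026, 1127 and 1124 CPM on day 3, against 552, 566 and 568 CPM on day 1 in the same order of media. Of the 6 progenitor markers, 4 rose in mSOD1 medium, 3 in wtSOD1 medium and 3 in NTg medium, and Hes5, a Notch target, fell in each. Spinal interneuron markers fell, 7 of 7 tested in each medium, with summed means of 41.2, 38.7 and 40.0 CPM on day 3, against 81.2, 82.4 and 84.9 CPM on day 1. The part of these cell type shifts in the fall of the 4 genes was not tested. Mnx1 and Isl1 themselves fell, with log2 differences of -1.55 and -1.39 in mSOD1 medium, -1.73 and -1.48 in wtSOD1 medium and -1.69 and -1.48 in NTg medium (adjusted p of at most 5.55e-12 for Mnx1 and 1.25e-13 for Isl1).

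Ratios within a library do not depend on its scaling, and the pairs of genes were compared in this way with exact two-sided permutation tests of 6 against 6 libraries. The smallest p such a test can give is 0.00216, and p-values were adjusted over 108 tests. Leaving out an experiment gave the test fewer libraries, so the smallest p it could give was larger. In those permutation tests no adjusted p of the ratios below was under 0.0296, so a call could be lost with little change in the difference. Slc18a3 took 41.8% ± 0.72 of the reads of Chat plus Slc18a3 on day 3 in mSOD1 medium, 41.1% ± 0.90 in wtSOD1 medium and 41.3% ± 1.29 in NTg medium (SD, n = 6 each). On day 1 it took 42.0% ± 0.92, 42.0% ± 0.32 and 41.4% ± 0.82 in the same order of media. No comparison of this share passed the adjusted threshold, and the lowest exact permutation p was 0.0411 for the days in wtSOD1 medium (adjusted p = 0.108). The labels state neither the counting program nor its strand setting, so how reads of the shared locus were divided between Chat and Slc18a3 is unknown, and their agreement in level is uncertain for that reason.

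The ratio of Chat to Slc5a7 was lower on day 3 in every experiment of every medium. The log2 ratio, on read counts not corrected for length, was -0.56 ± 0.10 on day 3 in mSOD1 medium, against -0.02 ± 0.13 on day 1 (exact permutation p = 0.00216, adjusted p = 0.0117). It was -0.70 ± 0.08 on day 3 in wtSOD1 medium, against 0.02 ± 0.17 on day 1 (exact permutation p = 0.00216, adjusted p = 0.0117), and -0.62 ± 0.11 on day 3 in NTg medium, against 0.04 ± 0.31 on day 1 (exact permutation p = 0.00433, adjusted p = 0.0195). The fall of Chat was thus larger than that of Slc5a7 beyond the spread between libraries. In NTg medium the adjusted call was lost when experiment 2, 3, 4 or 5 was left out, with adjusted p up to 0.0659. The difference between the days in NTg medium ran from -0.75 to -0.60 with an experiment left out. The log2 ratio of Chat to Ache likewise fell by 0.73 in mSOD1 medium, 0.94 in wtSOD1 medium and 0.82 in NTg medium (exact permutation p = 0.00216 and adjusted p = 0.0117 in each). Slc5a7 to Ache differed between the days by -0.19 in mSOD1 medium (adjusted p = 0.0534), -0.21 in wtSOD1 medium (adjusted p = 0.0534) and -0.15 in NTg medium (adjusted p = 0.495), none of which passed.

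Against Isl1, the change between the days again differed between the pairs of genes. Isl1 and Mnx1 themselves fell. The median log2 difference over all genes was -0.00797 in mSOD1 medium, -0.00574 in wtSOD1 medium and -0.000263 in NTg medium. A gene that kept its level would therefore also rise relative to Isl1 or Mnx1, and such ratios of other genes were not tested. Slc5a7 rose relative to Isl1 by 0.80 on the log2 scale in mSOD1 medium, 0.66 in wtSOD1 medium and 0.71 in NTg medium, and Ache by 0.99, 0.88 and 0.86 in the same order (exact permutation p = 0.00216 and adjusted p = 0.0117 in all 6). Chat relative to Isl1 differed between the days by 0.26 in mSOD1 medium (exact permutation p = 0.00649, adjusted p = 0.025), by -0.06 in wtSOD1 medium (adjusted p = 0.513) and by 0.04 in NTg medium (adjusted p = 0.812). Slc18a3 relative to Isl1 differed by 0.25 in mSOD1 medium (exact permutation p = 0.0108, adjusted p = 0.039), by -0.12 in wtSOD1 medium (adjusted p = 0.224) and by 0.03 in NTg medium (adjusted p = 0.879). The pair of Slc5a7 and Ache therefore fell less than Isl1 in every medium, while for Chat and Slc18a3 a difference from Isl1 passed the threshold in mSOD1 medium alone; whether the media differ in this was not tested. These calls of Chat and Slc18a3 were each lost without experiment 1, 2, 3, 4 or 5, with adjusted p up to 0.0857 and 0.122. The smallest p of the test is larger with an experiment left out, and the differences ran from 0.21 to 0.31 for Chat and 0.17 to 0.31 for Slc18a3. The calls of Slc5a7 and Ache held each time an experiment was left out. Against Mnx1, whose log2 difference was more negative than that of Isl1, more of the comparisons passed. Chat rose relative to Mnx1 by 0.41 in mSOD1 medium (adjusted p = 0.0117), 0.19 in wtSOD1 medium (adjusted p = 0.025) and 0.26 in NTg medium (adjusted p = 0.025), in 6 of 6 experiments each. The call in wtSOD1 medium was lost without experiment 1, 2, 3, 5 or 6 (adjusted p up to 0.0804) and that in NTg medium without experiment 2, 3, 4, 5 or 6 (adjusted p up to 0.0857). Slc18a3 rose relative to Mnx1 by 0.40 in mSOD1 medium and 0.25 in NTg medium (adjusted p = 0.0117 each), and in wtSOD1 medium its difference was 0.13 (adjusted p = 0.112). Slc5a7 rose relative to Mnx1 by 0.95, 0.91 and 0.92 in mSOD1, wtSOD1 and NTg medium (adjusted p = 0.0117, 0.0117 and 0.0195), and Ache by 1.14, 1.13 and 1.07 in the same order (adjusted p = 0.0117 each). The call of Slc5a7 in NTg medium was lost without experiment 2, 3, 4 or 5 (adjusted p up to 0.0659).

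On day 1 no difference between media was detected for any of the 4 genes. Mean Chat was 218 ± 20.0 CPM in mSOD1 medium, 225 ± 13.4 CPM in wtSOD1 medium and 223 ± 23.8 CPM in NTg medium (SD, n = 6 each). The log2 differences of mSOD1 over NTg medium were -0.04 for Chat, -0.01 for Slc18a3, 0.03 for Slc5a7 and 0.01 for Ache, with edgeR adjusted p from 0.982 to 0.999. Those of wtSOD1 over NTg medium were 0.01, 0.04, 0.04 and 0.11 (adjusted p = 1 for each), and those of mSOD1 over wtSOD1 medium were -0.05, -0.05, -0.01 and -0.10 (adjusted p from 0.816 to 0.989). For Chat, the 95% interval of the log2 difference of mSOD1 over NTg medium ran from -0.25 to 0.17. The media differed little over all genes on this day: 0.421% were called between mSOD1 and NTg medium, 0.0263% between wtSOD1 and NTg medium and 1.01% between mSOD1 and wtSOD1 medium. Fits that block on the experiment number called none of the 4 genes on day 1. With a block across both days, 0.585%, 0.0592% and 1.54% of all genes were called in the same order of comparisons, and with a block for each experiment and day 1.24%, 0.368% and 3.79%.

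On day 3 all 4 genes were higher in mSOD1 than in NTg medium in each of the 6 experiments, at 116% to 123% of the NTg level, but no gene passed the threshold in the fit without a block. Chat averaged 99.3 ± 14.3 CPM in mSOD1 medium and 81.8 ± 13.2 CPM in NTg medium (SD, n = 6 each). Its level in experiments 1 to 6 was 116, 78.8, 114, 90.0, 102 and 94.8 CPM in mSOD1 medium, against 102, 63.4, 90.0, 79.7, 81.6 and 74.4 CPM in NTg medium. The groups overlapped, with experiments 1 and 3 high and experiment 2 low in both media, and within each experiment the mSOD1 library was the higher. Of all genes, 1.3% had groups apart in the higher direction, and none of the 4 did. The log2 difference was 0.27 ± 0.10 (SE, 95% interval 0.06 to 0.49, adjusted p = 0.135).

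Slc18a3 in experiments 1 to 6 was at 87.6, 55.5, 81.2, 66.0, 72.2 and 66.7 CPM in mSOD1 medium, against 77.4, 45.0, 66.0, 54.9, 53.5 and 50.6 CPM in NTg medium. The log2 difference was 0.30 ± 0.12 (95% interval 0.05 to 0.54, adjusted p = 0.172). Slc5a7 was at 163, 107, 160.5, 134, 159.7 and 154 CPM in mSOD1 medium, against 142, 97.0, 142, 114, 137 and 124 CPM in NTg medium. These groups also overlapped, and every experiment again had the higher level in mSOD1 medium. The log2 difference of Slc5a7 was 0.22 ± 0.11 (95% interval -0.01 to 0.44, adjusted p = 0.279). Ache was at 53.0, 33.8, 47.4, 37.6, 51.9 and 46.2 CPM in mSOD1 medium, against 48.5, 31.7, 43.9, 32.3, 34.7 and 35.96 CPM in NTg medium. Experiments 5 and 6 gave the widest differences for Ache, and its log2 difference was 0.24 ± 0.12 (95% interval -0.01 to 0.48, adjusted p = 0.272).

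Of all genes, 2.91% were called between mSOD1 and NTg medium on day 3, with 2.23% of all genes called higher, and 13.8% were higher in mSOD1 medium in all 6 experiments. With the experiment number as a block across both days, Chat (log2 difference 0.28, adjusted p = 0.0219), Slc18a3 (0.30, adjusted p = 0.0387) and Ache (0.24, adjusted p = 0.0341) passed, and Slc5a7 did not (0.21, adjusted p = 0.0783). This fit called 9.94% of all genes, 6.46% as higher. With a separate block for each experiment on each day, all 4 passed, with adjusted p of 7.41e-05 for Chat, 0.000567 for Slc18a3, 2.07e-05 for Slc5a7 and 0.00136 for Ache, where 18.1% of all genes were called and 10.9% were higher. The sizes of the differences hardly moved between the fits. NTg day 3 replicate 1 was the highest NTg library for all 4 genes, so leaving it out raises their differences from NTg medium. Without it, Chat (0.35, adjusted p = 0.0372) and Slc18a3 (0.41, adjusted p = 0.0373) passed in the fit with no block. Over all genes, 1133 were then called, against 443 with all libraries.

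**Figure D3:**
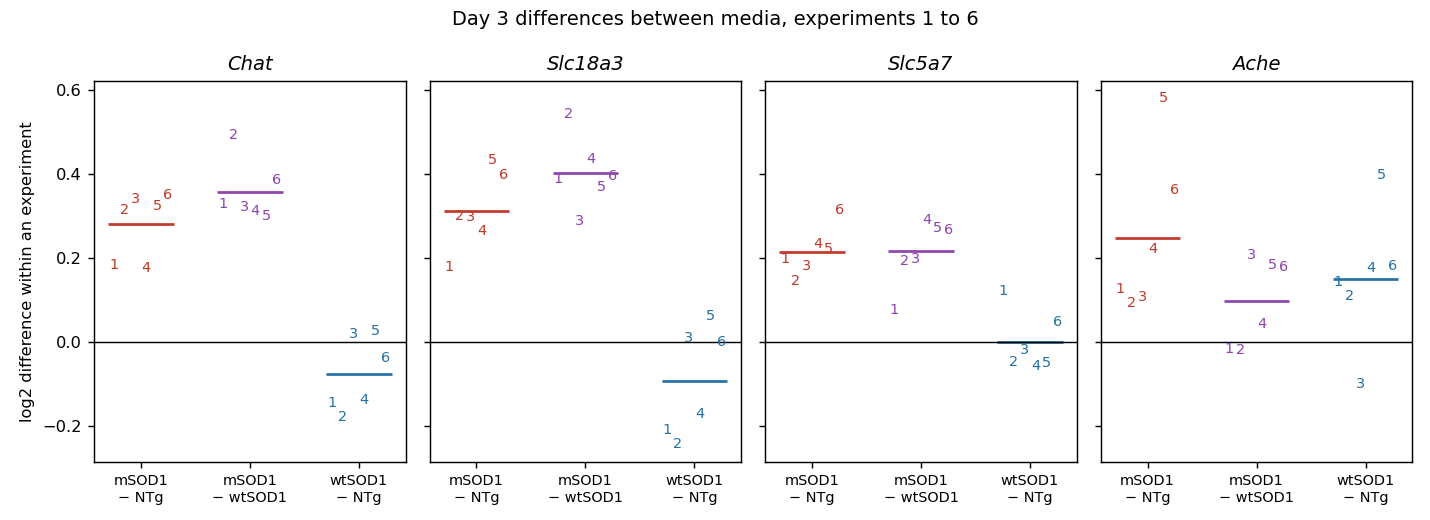
Log2 difference between media on day 3 within each experiment (vertical axis), for each gene and pair of media; numerals mark the experiments, bars are means, and the black line is 0. For Chat and Slc18a3 all 6 experiments lie above 0 for mSOD1 minus NTg and for mSOD1 minus wtSOD1, while those for wtSOD1 minus NTg lie on both sides.

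Against wtSOD1 medium, the estimated difference on day 3 was larger for the synthesis and loading genes and smaller for Ache than against NTg medium. That gap is the difference of wtSOD1 from NTg medium, which passed for none of these genes. Chat in experiments 1 to 6 was at 116, 78.8, 114, 90.0, 102 and 94.8 CPM in mSOD1 medium, against 92.2, 56.0, 91.2, 72.4, 83.0 and 72.5 CPM in wtSOD1 medium. The groups overlapped, as they did for the other 3 genes, where 1.18% of all genes had groups apart in the higher direction. Chat was higher in mSOD1 medium in 6 of 6 experiments. The log2 difference was 0.36 ± 0.11 (95% interval 0.14 to 0.57), with adjusted p = 0.051, just over the threshold. Slc18a3 averaged 71.5 ± 11.5 CPM in mSOD1 medium and 54.5 ± 11.1 CPM in wtSOD1 medium and was higher in 6 of 6 experiments. Its log2 difference was 0.40 ± 0.12 (95% interval 0.15 to 0.66, adjusted p = 0.0619). Slc5a7 averaged 146 ± 21.8 CPM in mSOD1 medium and 126 ± 21.6 CPM in wtSOD1 medium, with a log2 difference of 0.22 ± 0.11 (adjusted p = 0.297, higher in 6 of 6 experiments). Ache averaged 45.0 ± 7.74 CPM in mSOD1 medium and 42.0 ± 6.96 CPM in wtSOD1 medium, with a log2 difference of 0.11 ± 0.12 (95% interval -0.14 to 0.35, adjusted p = 0.707, higher in 4 of 6 experiments).

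The calls between mSOD1 and wtSOD1 medium depended on the fit. Of all genes, 3.39% were called without a block, 2.49% as higher, and 12.4% were higher in all 6 experiments. With the block across days, Chat (adjusted p = 0.00315) and Slc18a3 (adjusted p = 0.00575) passed, while Slc5a7 (adjusted p = 0.0845) and Ache (adjusted p = 0.489) did not, and 5.87% of all genes were called higher. With a block for each experiment and day, Chat (adjusted p = 1.71e-06), Slc18a3 (adjusted p = 1.85e-05) and Slc5a7 (adjusted p = 1.98e-05) passed and Ache did not (adjusted p = 0.258), with 9.48% of all genes called higher. DESeq2 called Chat (adjusted p = 0.0182) and Slc18a3 (adjusted p = 0.022) with no block. It called 783 of all genes, against 516 with edgeR and no block. Leaving out both day 1 libraries that stand apart brought Chat past the threshold in edgeR (adjusted p = 0.0441), where 664 of all genes were called.

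Between wtSOD1 and NTg medium no difference was detected on day 3. Mean levels in wtSOD1 medium against NTg medium were 77.9 ± 13.8 and 81.8 ± 13.2 CPM for Chat, 54.5 ± 11.1 and 57.9 ± 11.8 CPM for Slc18a3, 126 ± 21.6 and 126 ± 17.9 CPM for Slc5a7, and 42.0 ± 6.96 and 37.8 ± 6.84 CPM for Ache (SD, n = 6 each). The log2 differences were -0.08 ± 0.11, -0.11 ± 0.12, 0.00 ± 0.11 and 0.13 ± 0.12 in that order (SE, edgeR adjusted p = 1 for each). The wtSOD1 library was higher in 2, 3, 2 and 5 of 6 experiments. Only 0.0986% of all genes were called in this comparison, and no block fit called any of the 4 (0.132% of all genes with the block across days and 0.368% with a block for each experiment and day).

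**Figure D4:**
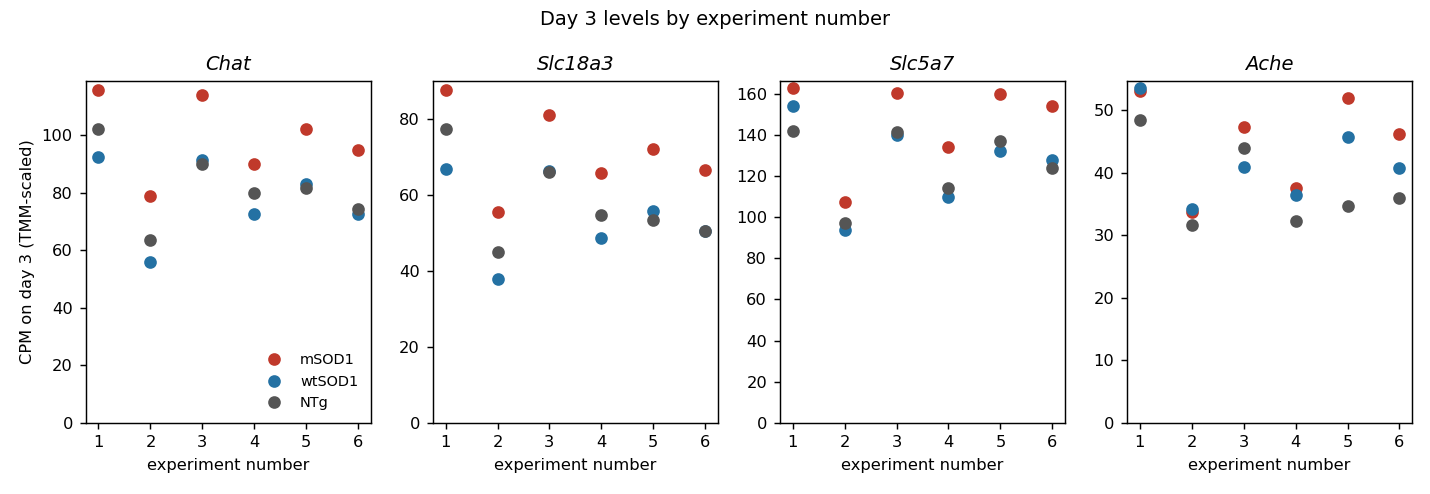
Level of each gene on day 3 in TMM-scaled CPM (vertical axis) by experiment number (horizontal axis); red, blue and grey points are the mSOD1, wtSOD1 and NTg libraries. Chat is lowest in experiment 2 in each medium, at 78.8, 56.0 and 63.4 CPM, and the mSOD1 point is the highest of each experiment for Chat, Slc18a3 and Slc5a7.

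The day 3 values moved with the experiment number in all media. Experiment 2 gave the lowest level and experiment 1 the highest level of each of the 4 genes in each of the 3 media. Chat in experiment 1 was at 116, 92.2 and 102 CPM in mSOD1, wtSOD1 and NTg medium, and in experiment 2 at 78.8, 56.0 and 63.4 CPM in the same order. What the libraries of an experiment share is not stated in the labels.

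The change between days was compared across media as an interaction. The interaction of Chat was 0.31 ± 0.15 for mSOD1 against NTg medium (log2, SE, adjusted p = 0.318) and 0.41 ± 0.15 for mSOD1 against wtSOD1 medium (adjusted p = 0.17), a smaller fall in mSOD1 medium in 6 of 6 experiments each, and neither passed. Differences in that direction in all 6 experiments were found for 8.84% of all genes against NTg medium and 9.02% against wtSOD1 medium. These counts match libraries across days by number, where libraries sharing a number showed little likeness (mean r 0.0373). The fit with a block across days rests on the same match, since it takes the effect of an experiment as equal on both days. Of all genes, 0.23% were called in the interaction of mSOD1 with NTg medium and 0.592% in that of mSOD1 with wtSOD1 medium. With the block across days, the interaction with wtSOD1 medium passed for Chat (0.41, adjusted p = 0.0303) and Slc18a3 (0.45, adjusted p = 0.0438), where 2.76% of all genes were called higher, and that with NTg medium passed for none of the 4 (adjusted p from 0.101 to 0.361, with 2.67% of all genes called). With a block for each experiment and day, all 4 genes passed against NTg medium (adjusted p of 0.00151 for Chat, 0.0126 for Slc18a3, 0.00979 for Slc5a7 and 0.0459 for Ache), where 7.32% of all genes were called higher. Against wtSOD1 medium, Chat, Slc18a3 and Slc5a7 passed in that fit, at adjusted p of 6.41e-05, 0.000404 and 0.0018, and Ache did not (adjusted p = 0.0713), where 7.4% of all genes were called higher. Between wtSOD1 and NTg medium the interactions were -0.09, -0.15, -0.04 and 0.02 for Chat, Slc18a3, Slc5a7 and Ache (adjusted p = 1 for each), and 0.0197% of all genes were called.

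Markers of other cells differed between media on day 3 as well. Over all genes, 2.23% were called higher and 0.684% lower in mSOD1 than in NTg medium. With the experiment as a block across days these shares were 6.46% and 3.48%. Against wtSOD1 medium, without a block, 2.49% were called higher and 0.901% lower. Of 8 pan-neuronal markers, Stmn2, a tubulin-binding protein of growing axons, was higher in mSOD1 than in NTg medium (log2 difference 0.32 ± 0.08, adjusted p = 0.0231), and 6 were higher with the experiment as a block. Of 7 markers of dividing cells, Mcm2, part of the replicative helicase, was lower in mSOD1 medium (-0.37 ± 0.07, adjusted p = 0.00522), and 6 were lower with the block. Of 5 mesenchyme markers tested, Col1a2 (-0.49) and Dcn (-0.83) were lower, and 3 were lower with the block. None of 8 astrocyte markers was called between media on day 3 in either fit. Summed pan-neuronal markers ranged from 5563 to 7929 CPM in mSOD1 medium, 4223 to 6896 CPM in wtSOD1 medium and 4603 to 6926 CPM in NTg medium. Summed motor neuron markers ranged from 779 to 909, 629 to 823 and 694 to 934 CPM in the same order, with 0 of 7 called between mSOD1 and NTg medium and 1 of 7, Prph, between mSOD1 and wtSOD1 medium (0.41 ± 0.11, adjusted p = 0.0343). Stmn2 (0.40 ± 0.08, adjusted p = 0.00197) and Mcm2 (-0.40 ± 0.07, adjusted p = 0.00127) were also called against wtSOD1 medium. The part of these markers in the differences of the 4 genes was not tested.

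Isl1 and Mnx1 gave log2 differences of 0.02 (adjusted p = 0.946) and 0.06 (adjusted p = 0.846) between mSOD1 and NTg medium on day 3, and of 0.08 (adjusted p = 0.774) and 0.19 (adjusted p = 0.506) between mSOD1 and wtSOD1 medium. Ratios to these genes within each library were compared with the exact permutation test. Chat relative to Isl1 was higher in mSOD1 than in NTg medium by 0.25 on the log2 scale (exact permutation p = 0.00866, adjusted p = 0.0322) and higher than in wtSOD1 medium by 0.28 (exact permutation p = 0.00433, adjusted p = 0.0195), in 6 of 6 experiments each. Slc5a7 relative to Isl1 was higher by 0.19 against NTg medium (exact permutation p = 0.00216, adjusted p = 0.0117) and by 0.14 against wtSOD1 medium (adjusted p = 0.0496, higher in 4 of 6 experiments). Slc18a3 relative to Isl1 was higher than in wtSOD1 medium by 0.33 (adjusted p = 0.0195), and its difference from NTg medium was 0.28 (adjusted p = 0.0584). The differences of Ache relative to Isl1 were 0.22 (adjusted p = 0.112) and 0.02 (adjusted p = 0.855). Against Mnx1, Slc18a3 passed in both comparisons, by 0.21 each (adjusted p = 0.0452 against NTg and 0.025 against wtSOD1 medium), while Chat gave 0.18 (adjusted p = 0.127) and 0.17 (adjusted p = 0.0632). Neither Slc5a7 nor Ache passed relative to Mnx1. Only Slc5a7 relative to Isl1 against NTg medium kept its call each time an experiment was left out. The call of Chat relative to Isl1 against NTg medium was lost without experiment 1, 2, 3, 4 or 5. Its difference ran from 0.22 to 0.28 in these tests with fewer libraries, whose smallest p is larger.

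The genes around the 4 were grouped by their part in the pathway. In NTg medium 30.8% of all genes were called higher on day 3 and 30.8% lower, to be set beside the counts of each list. In the supply of choline, 1 of 12 genes tested rose on day 3 and 5 fell in NTg medium, with a median log2 difference of -0.16 over the list against 0.00 over all genes (-0.000263). Slc44a5, a choline transporter-like gene, fell by 0.83 in NTg medium (adjusted p = 2.66e-16) and by 0.62 in mSOD1 medium (adjusted p = 1.01e-12). Between media on day 3 it ranged from 177 to 212 CPM in mSOD1 medium (median 192), 137 to 175 in wtSOD1 medium (median 145) and 149 to 178 in NTg medium (median 163). It was higher in mSOD1 than in NTg medium (log2 difference 0.25 ± 0.05, adjusted p = 0.00705) and than in wtSOD1 medium (0.37 ± 0.05, adjusted p = 2.71e-05), in 6 of 6 experiments each. Pcyt1b, an enzyme that uses phosphocholine to make phosphatidylcholine, was also higher in mSOD1 medium, by 0.24 ± 0.07 against NTg (adjusted p = 0.0448) and 0.30 ± 0.07 against wtSOD1 medium (adjusted p = 0.00845). Slc44a2, another choline transporter-like gene, was higher in mSOD1 than in wtSOD1 medium by 0.19 ± 0.05 (adjusted p = 0.0307). Of the 12 genes, without a block, 2 were thus called higher and 0 lower against NTg medium, and 3 higher and 0 lower against wtSOD1 medium. Over all genes, 2.23% and 2.49% were called higher in these comparisons.

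In the supply of acetyl-CoA, 6 of 13 genes rose on day 3 and 4 fell in NTg medium, and none was called between media in the fit without a block. With the experiment as a block across days, Pdk1 was higher in mSOD1 than in NTg medium on day 3 (0.22, adjusted p = 0.0288). Acly, which makes cytosolic acetyl-CoA from citrate, fell by 0.74 (adjusted p = 1.5e-16), and Slc25a1, the mitochondrial citrate carrier that feeds it, fell by 0.68 (adjusted p = 1.7e-09). Acss2, which makes acetyl-CoA from acetate, fell by 0.35 (adjusted p = 7.94e-06). Pdk1, a kinase that inhibits pyruvate dehydrogenase, rose by 0.47 (adjusted p = 2.01e-07). The same 4 genes moved in the same directions in the other media, with Acly at -0.76 in mSOD1 medium (adjusted p = 9.93e-17) and -0.67 in wtSOD1 medium (adjusted p = 2.22e-15).

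Bche, the butyrylcholinesterase that also splits acetylcholine, went the other way from Ache. It rose on day 3 by 0.94 ± 0.11 in mSOD1 medium (adjusted p = 3.57e-09), 1.42 ± 0.11 in wtSOD1 medium (adjusted p = 3.88e-14) and 1.29 ± 0.11 in NTg medium (adjusted p = 9.22e-13). On day 3 Bche ranged from 29.1 to 41.9 CPM in mSOD1 medium (median 31.4), against 35.4 to 56.0 CPM in wtSOD1 medium (median 40.3) and 35.2 to 51.0 CPM in NTg medium (median 38.4). It was lower in mSOD1 than in wtSOD1 medium in 6 of 6 experiments (log2 difference -0.38 ± 0.10, adjusted p = 0.032). Prima1, which anchors acetylcholinesterase in neuronal membranes, fell by 0.54 in wtSOD1 medium (adjusted p = 0.00192) and by 0.80 in NTg medium (adjusted p = 1.95e-05), and in mSOD1 medium its difference was -0.21 (adjusted p = 0.254).

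**Figure D5:**
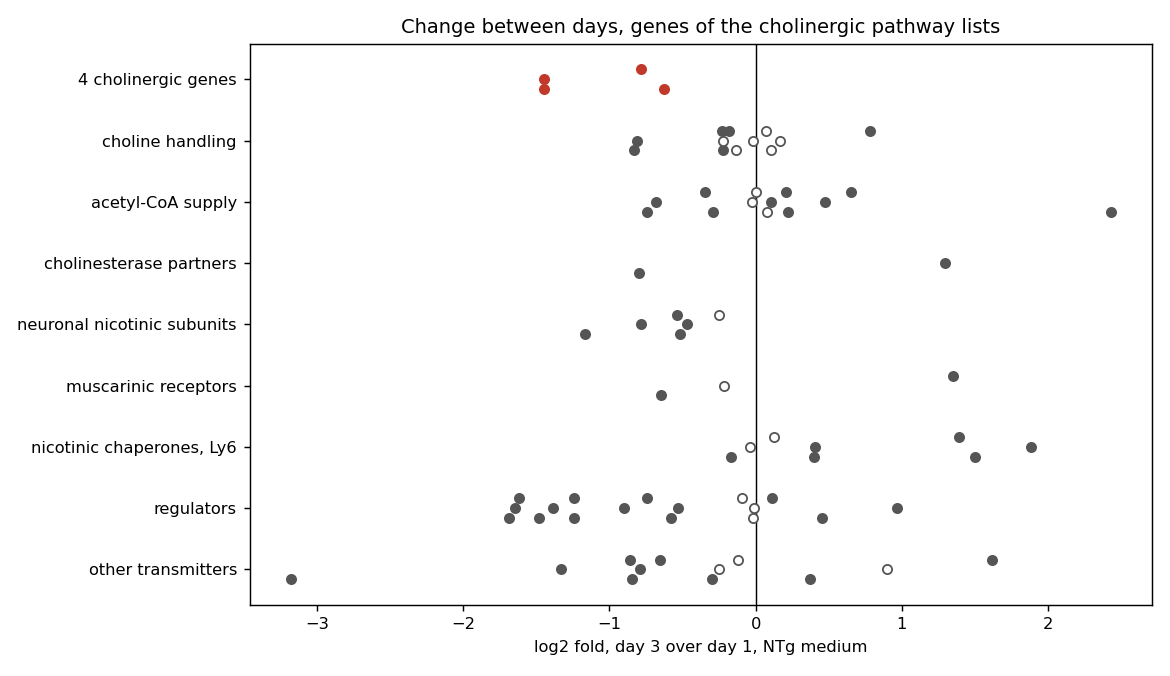
Log2 fold, day 3 over day 1, in NTg medium (horizontal axis) for the 4 genes (red) and the tested genes of 8 lists (grey), one row per list; filled points have an adjusted p under 0.05, and open points do not. Chat and Slc18a3 lie at -1.45, and no gene of the neuronal nicotinic list lies above 0.

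Of 6 neuronal nicotinic receptor subunits tested, 5 fell on day 3 in NTg medium, 5 in wtSOD1 medium and 4 in mSOD1 medium, and none rose. Over all genes, 30.8%, 30.7% and 28% were called lower in the same order of media. Chrnb2, the subunit of most brain nicotinic receptors, fell by 0.58 in mSOD1 medium (adjusted p = 5.26e-08), 0.82 in wtSOD1 medium (adjusted p = 1.4e-11) and 0.79 in NTg medium (adjusted p = 4.54e-11). It was higher in mSOD1 than in wtSOD1 medium on day 3 (0.30 ± 0.08, adjusted p = 0.0266), with 84.3 to 116 CPM in mSOD1 medium and 65.8 to 95.4 CPM in wtSOD1 medium. Chrnb2 shares a stretch of the annotation with Adar, so its reads are uncertain. Chrna5 overlaps Chrna3 in the same way and fell by 1.17 in NTg medium (adjusted p = 1.2e-09), against 0.54 for Chrna4 (adjusted p = 2.94e-08) and 0.47 for Chrna7, the subunit of homomeric receptors (adjusted p = 2.82e-05). Of the muscle subunits, 1 of 5 passed the filter, Chrnb1, and it rose by 1.27 in NTg medium (adjusted p = 1.21e-11).

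Among muscarinic receptors, 3 of 5 passed the filter and moved apart from each other. Chrm3, which couples to phospholipase C, rose on day 3 by 2.04 ± 0.17 in mSOD1 medium (adjusted p = 6.02e-13), 0.93 ± 0.16 in wtSOD1 medium (adjusted p = 3.3e-06) and 1.35 ± 0.17 in NTg medium (adjusted p = 8.83e-09). On day 3 it ranged from 22.1 to 44.9 CPM in mSOD1 medium (median 28.6), against 14.6 to 21.9 CPM in wtSOD1 medium (median 19.7) and 14.4 to 23.5 CPM in NTg medium (median 20.3). All mSOD1 libraries were above all wtSOD1 libraries, and the mSOD1 and NTg groups overlapped. Chrm3 was higher in mSOD1 than in NTg medium by 0.63 ± 0.15 (adjusted p = 0.0187) and than in wtSOD1 medium by 0.64 ± 0.15 (adjusted p = 0.00951), and its rise differed between mSOD1 and wtSOD1 medium by 1.11 ± 0.23 (adjusted p = 0.0153). Chrm2, a Gi-coupled receptor, fell by 0.64 in NTg medium (adjusted p = 7.31e-06).

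Of 8 chaperones and Ly6-type modulators of nicotinic receptors, 5 rose and 1 fell on day 3 in NTg medium. Lynx1, a membrane-bound inhibitor of nicotinic receptors, rose by 2.24 in mSOD1 medium (adjusted p = 8.98e-15), 1.57 in wtSOD1 medium (adjusted p = 2.11e-11) and 1.89 in NTg medium (adjusted p = 4.84e-13). Against wtSOD1 medium on day 3, Lynx1 (0.58 ± 0.14, adjusted p = 0.0111), Lypd6b (0.80 ± 0.22, adjusted p = 0.0308) and Ly6e (0.28 ± 0.07, adjusted p = 0.0123) were higher in mSOD1 medium, in 6 of 6 experiments each. Against NTg medium none of the 8 was called without a block, and Lynx1 was higher with the block across days (0.34, adjusted p = 0.0479). Of 6 genes of neuromuscular synapse signalling, Nrg1, a growth factor supplied by motor neurons, was higher in mSOD1 than in NTg medium (0.26 ± 0.07, adjusted p = 0.0457) and than in wtSOD1 medium (0.35 ± 0.08, adjusted p = 0.00494). It fell between the days by 0.35 in wtSOD1 medium (adjusted p = 9.14e-05) and 0.33 in NTg medium (adjusted p = 0.00028), and in mSOD1 medium its difference was -0.05 (adjusted p = 0.617). Lrp4, the agrin receptor, rose by 2.44 in NTg medium (adjusted p = 1.01e-15), and Agrn fell by 0.21 (adjusted p = 0.000781).

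Of 17 regulators tested, 3 rose and 11 fell on day 3 in NTg medium, where 30.8% of all genes were called in each direction. The median log2 difference of the regulators was -0.74, and none was called between media in the fit without a block. With the block across days, Onecut1 was higher (0.33, adjusted p = 0.00309) and Ldb1, a cofactor of LIM-homeodomain factors, lower (-0.15, adjusted p = 0.0285) in mSOD1 than in NTg medium on day 3, and Ebf1, a transcription factor of differentiating neurons, was higher in mSOD1 than in wtSOD1 medium (0.47, adjusted p = 0.0224). Isl1 and Mnx1, given above, were among those that fell, as was Onecut1, a transcription factor of early motor neurons (-1.25, adjusted p = 4.61e-12). Rest, a repressor of neuronal genes that acts at RE1 elements, rose by 0.97 (adjusted p = 3.39e-12). Of 12 genes of other transmitter phenotypes tested, 2 rose and 7 fell. Th (-3.18, adjusted p = 1.17e-08), the enzyme of catecholamine synthesis, Slc6a5 (-1.33, adjusted p = 1.4e-10), the glycine transporter of inhibitory neurons, Gad1 (-0.86, adjusted p = 3.43e-09), an enzyme of GABA synthesis, and Slc32a1 (-0.65, adjusted p = 2.36e-06), the vesicular GABA and glycine transporter, fell in NTg medium. Ddc, a decarboxylase of monoamine synthesis, was lower in wtSOD1 than in NTg medium on day 3 (-0.48 ± 0.09, adjusted p = 0.00554). A fall on day 3 was thus not seen for the cholinergic genes alone.

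The genes most like each of the 4 across the 36 libraries were ranked by the root mean square difference of their centred log2 CPM, among 13456 genes. Slc18a3 was the nearest to Chat, and Chat to Slc18a3, at 0.0522, where the median gene was at 0.731 from Chat. The next for Chat were Islr2 (0.117), Ecel1 (0.125), Rftn1 (0.129) and Ina (0.13), the last encoding the neuronal filament protein internexin alpha. The same 4 genes followed for Slc18a3. For Slc5a7 the nearest were Jak1 (0.0868), Elavl2 (0.104), Slitrk1 (0.107), Peg13 (0.109) and Nefm (0.11), the last encoding a neurofilament protein. For Ache they were Ppp2r5b (0.123), Tex2 (0.126), Kndc1 (0.127), Acot7 (0.128) and Sfxn3 (0.128). Slc5a7 was at 0.359 from Chat, at rank 391, and at 0.186 from Ache, at rank 480. The median gene was at 0.38 from Ache. The ranking used both days, so the fall of these neighbours between the days follows from how they were picked. In NTg medium it was 1.47 for Islr2, 0.83 for Jak1 and 0.60 for Ppp2r5b on the log2 scale. Between mSOD1 and NTg medium on day 3, Elavl2 (0.31 ± 0.07, adjusted p = 0.0119) and Slitrk1 (0.30 ± 0.08, adjusted p = 0.043) were called among these neighbours.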

How the data were processed

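The authors deposited, per the file headers, 1 table for each of 36 libraries, with whole-number read counts per gene and a transformed expression column headed VSE, here read as values on a log2-like scale. Per the submitters' processing notes, the genome build was mm9 and the tools included DESeq and TopHat 1.3.3. The labels do not state the counting program, annotation or strand setting. The 4 genes and all lists were chosen with earlier results of these data known.

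Counts as deposited were filtered with filterByExpr, scaled by TMM and tested with edgeR 4.0.16 (limma 3.58.1, R 4.3.3): quasi-likelihood fits to 6 group means with 30 residual degrees of freedom, 12 comparisons, prior count 2, Benjamini-Hochberg adjustment over 15207 genes and a threshold of 0.05. Depth was 4.39 to 88.9 M reads a library, and no libraries were identical. Genes were named by rule: the 4 genes, every list gene called between media or in an interaction, otherwise up to 4 genes a list by lowest p between days in NTg medium, the 5 nearest in likeness, and Sod1, Mnx1 and Isl1. Ratios within libraries were tested by exact two-sided permutation of 6 against 6 libraries (924 arrangements) and were added after the levels were seen. Promoters are RefSeq sequences of build GRCm38.p6, and exon lengths are from GENCODE M21. The fit without a block was tested on simulated counts for mSOD1 against NTg medium on day 3. Those counts held no effect of the experiment, and the block fits and interactions were not simulated.

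The labels give the experiment number, which was read here as pairing libraries across media, though the labels do not state this. In the check of pairing, deviations from the group means were correlated between libraries. Those sharing a number had a mean r of 0.24 on day 3, with 16 of 18 over 0.1, and those with unlike numbers -0.0479. For day 1 the values were 0.132, with 11 of 18 over 0.1, and -0.026. Libraries of unlike days that share a number had a mean r of 0.0373, with 9 of 54 over 0.1. The block across days takes the effect of an experiment as equal on both days and so rests on this loose match. Alternatives were DESeq2 1.42.0, RLE scaling, no filter, limma on the VSE values, blocks by experiment, Chat and Slc18a3 summed, and leaving out libraries.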

Additional observations from a re-analysis of the deposited data

Results flagged for a closer look

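The day-by-medium interactions below passed a test of the difference itself, that is, of whether the change from day 1 to day 3 differed between media, and each is a log2 value. With a block for each experiment and day, the interaction of mSOD1 with NTg medium was 0.32 for Chat (0.3165), 0.31 for Slc18a3 (0.3105), 0.19 for Slc5a7 (0.1878) and 0.23 for Ache (0.2311). In that fit the interaction of mSOD1 with wtSOD1 medium was 0.41 for Chat (0.4074), 0.45 for Slc18a3 (0.4537) and 0.23 for Slc5a7 (0.2251). With a block for each experiment across both days it was 0.41 for Chat (0.4052) and 0.45 for Slc18a3 (0.4506). Without a block none of these passed. The interaction of Chrm3, at 1.11 between mSOD1 and wtSOD1 medium (1.106), passed without a block.

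For the levels of the 4 genes and the Slc18a3 share, 30 groups of 6 values were tested for a value far from the others by Dixon's test, and 0 were past the limit, where chance passes about 1 in 20. Over all genes, NTg day 1 replicate 6 stood apart on principal component 2 and wtSOD1 day 1 replicate 4 on principal component 3.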

How the results depend on the processing

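All 12 falls between days kept their direction and call with DESeq2, RLE scaling, no filter, the VSE values, the replicate block across days, both day 1 libraries that stand apart left out, and each experiment or library left out; a block within day cannot compare days. RLE scaling changed no call of the 4 genes, and with Chat and Slc18a3 counted as 1 gene the sum had the calls of Chat, and no call of Slc5a7 or Ache changed. With a replicate block across days, the day 3 differences of mSOD1 from NTg medium became 0.2762 for Chat, 0.2997 for Slc18a3 and 0.2381 for Ache, and those from wtSOD1 medium 0.3576 for Chat and 0.4043 for Slc18a3, all now called, as were interactions with wtSOD1 medium of 0.4052 and 0.4506. With a replicate block within day the called values were 0.2787, 0.3045, 0.217 and 0.2449 for Chat, Slc18a3, Slc5a7 and Ache against NTg medium, 0.3571, 0.403 and 0.2155 for the first 3 against wtSOD1 medium, interactions of 0.3165, 0.3105, 0.1878 and 0.2311 with NTg medium, and 0.4074, 0.4537 and 0.2251 with wtSOD1 medium; the block changed no other call of the 4 genes. DESeq2 gave 0.3521 for Chat and 0.3957 for Slc18a3 against wtSOD1 medium, both called. Without NTg day 1 replicate 6 and wtSOD1 day 1 replicate 4, Chat against wtSOD1 medium on day 3 was 0.3574 and called, and 3 uncalled day 1 differences changed sign: -0.05117 for Chat and -0.02335 for Slc18a3 (wtSOD1 over NTg), and 0.01421 for Slc5a7 (mSOD1 over wtSOD1). Slc18a3 for mSOD1 over NTg on day 1 was 0.002279 with the VSE values, and Slc5a7 for wtSOD1 over NTg on day 3 was -0.001443 without a filter, neither called. The cause of these changes was not tested.

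Leaving out an experiment or a library, mSOD1 over NTg on day 3 ran from 0.212 to 0.3532 for Chat and 0.232 to 0.4067 for Slc18a3, both called only without NTg day 3 replicate 1. For mSOD1 over wtSOD1 on day 3 the ranges were 0.2748 to 0.4139 for Chat, called without experiment 2, mSOD1 replicate 2 or 4, or wtSOD1 replicate 1 or 3, and 0.3133 to 0.4741 for Slc18a3, called without experiment 1, mSOD1 replicate 2, or wtSOD1 replicate 1 or 3. Uncalled differences that changed sign were, for mSOD1 over NTg on day 1, Slc18a3 (-0.07548 to 0.03318), Slc5a7 (-0.009417 to 0.08208) and Ache (-0.04008 to 0.09456); for mSOD1 over wtSOD1 on day 1, Slc18a3 (-0.09632 to 0.002328) and Slc5a7 (-0.0528 to 0.03317); for wtSOD1 over NTg on day 1, Chat (-0.03744 to 0.05198) and Slc18a3 (-0.009309 to 0.08273); for wtSOD1 over NTg on day 3, Chat (-0.1452 to 0.0006504), Slc18a3 (-0.1784 to 0.003002) and Slc5a7 (-0.06439 to 0.07474); and for the interaction of wtSOD1 with NTg, Slc5a7 (-0.1047 to 0.03425) and Ache (-0.06465 to 0.1135). Ratios that changed sign when an experiment was left out were the Slc18a3 share (in percentage points) for mSOD1 over wtSOD1 on day 1 (-0.3116 to 0.223) and between days in mSOD1 (-0.5958 to 0.1963) and NTg medium (-0.2762 to 0.1185), and the log2 ratio of Ache to Isl1 for mSOD1 over wtSOD1 on day 3 (-0.0123 to 0.06788), and, between days in NTg medium, those of Chat (-0.008302 to 0.08022) and Slc18a3 to Isl1 (-0.02206 to 0.07434).

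The count of all genes called moved more. For mSOD1 over NTg on day 3 it was 443, against 715 with DESeq2, 288 without a filter, 1511 and 2758 with the blocks, 32 without experiment 3, 78 without mSOD1 replicate 3 and 1133 without NTg replicate 1. For mSOD1 over wtSOD1 on day 3 it was 516, against 783 with DESeq2, 1418 and 2366 with the blocks, 166 without experiment 6, 205 without wtSOD1 replicate 2 and 1346 without wtSOD1 replicate 1. For the interaction of mSOD1 with NTg medium it was 35, against 99 with DESeq2 and 406 and 1680 with the blocks, and for that with wtSOD1 medium 90, against 233, 599 and 1649.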
